A study of Mus musculus with 12 samples.

Results

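The 3 libraries of experiment 1 were compared with the 9 libraries of experiments 2 to 4 in RNA sequencing of mouse embryonic fibroblasts that carry the papillomavirus protein E6 as their immortalising agent. The members are the libraries whose title carries exp1, 3 of the 12 in all. They come from 3 cell lines: p27 KO, genotype p27-/-, and p27 WT clone1 and p27 WT clone2, genotype wild-type. Each line was sequenced in each of 4 experiments, and all 12 cultures had grown for 24 h in DMEM with 10% fetal bovine serum. The knockout is represented by a single line, so that genotype and line cannot be told apart; no comparison here is between genotypes. Nothing in the labels says whether cultures with the same experiment number were handled on the same day, and p-values measure the spread between these libraries, which may be partly technical. All the lines carry E6, known from human cells to promote the degradation of p53.

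The libraries held 15425327 to 23982524 counts in named genes, with 17953346, 19095810 and 23982524 in experiment 1 of KO, WT clone1 and WT clone2. The labels state 10M reads per sample, fewer than these totals, and whether reads or read ends were counted is not given in the sources used here, so that a count may not be an independent fragment. Cdkn1b, which encodes p27, was at 83.8 to 118 CPM (counts scaled to a common library total) in the line labelled KO, 86.8 to 101 in WT clone1 and 88.7 to 120 in WT clone2. These are counts over the whole gene, and the part deleted is not given in the sources used here. They neither show nor check the deletion. That line is therefore called KO-labelled in what follows, and no direction is drawn from its genotype. The fibroblast marker list summed to 17100 to 18600 CPM in experiment 1 and 11800 to 22200 CPM in the other libraries, with 12 of its 14 genes in the table, and the macrophage list, with 3 of 10 genes in the table, summed to 8.55 to 9.11 and 5.06 to 10.9 CPM. The neural list, with 4 of 8 genes in the table, summed to 23.4 to 71.1 and 23.9 to 129 CPM. The endothelial, epithelial, adipocyte and erythroid lists stayed under 17 CPM in every library, and none of the 8 skeletal muscle genes is in the table.

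Before RNA is sequenced it is copied to cDNA, fragmented and amplified, and transcripts of different length and base composition are known to pass these steps unequally. Libraries made on different occasions can therefore differ along both properties. Fibroblasts also change with density, serum and the cell cycle, in which histone messages accumulate in S phase and kinetochore and spindle genes in G2 and mitosis.

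The sequences shown first are from 1 GC-rich and 2 GC-poor genes among the protein-coding genes named for their difference between experiment 1 and the rest and whose coding sequence was read; they have the highest and the 2 lowest values of coding GC content. Each is the first 120 coding bases of the canonical transcript, on the gene's own strand, with G and C in capitals. Gpx1 (GRCm39, chr9:108216102-108217546), a glutathione peroxidase, was higher in experiment 1. Its printed stretch is 70.0% GC, its whole coding sequence 58.9%, and its coding length is 603 bases. Tex15 (chr8:34006766-34075610), needed for meiotic recombination in the mouse testis, and Samd9l (chr6:3372257-3405056), an interferon-inducible growth regulator, were lower. Their printed stretches are 31.7% and 33.3% GC and their whole coding sequences 37.5% and 39.1%, with coding lengths of 8355 and 4737 bases.
Gpx1: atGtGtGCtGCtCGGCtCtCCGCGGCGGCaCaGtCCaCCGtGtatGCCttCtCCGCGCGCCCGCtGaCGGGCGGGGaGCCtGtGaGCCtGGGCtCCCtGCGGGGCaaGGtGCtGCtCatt
Tex15: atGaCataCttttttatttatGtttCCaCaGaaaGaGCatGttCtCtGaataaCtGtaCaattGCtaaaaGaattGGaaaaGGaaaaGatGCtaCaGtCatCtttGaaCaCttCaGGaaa
Samd9l: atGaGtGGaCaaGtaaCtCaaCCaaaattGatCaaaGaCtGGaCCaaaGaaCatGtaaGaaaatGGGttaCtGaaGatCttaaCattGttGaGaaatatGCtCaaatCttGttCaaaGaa

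The second set shows small RNAs that were higher in experiment 1 of every line. Gm25360 (GRCm39, chr1:72265399-72265589) and Gm22973 (chr12:59087121-59087311) are annotated as small nuclear RNAs of 191 bases each, and 181 of the 191 positions hold the same base (94.8%). Reads from such near-identical copies can be split between them or lost, depending on the counting, so that their separate values are uncertain. Snord17 (chr2:144107899-144108136) is a small nucleolar RNA of 238 bases, of the class that guides chemical modification of ribosomal and spliceosomal RNA. Capitals again mark G and C.
Gm25360: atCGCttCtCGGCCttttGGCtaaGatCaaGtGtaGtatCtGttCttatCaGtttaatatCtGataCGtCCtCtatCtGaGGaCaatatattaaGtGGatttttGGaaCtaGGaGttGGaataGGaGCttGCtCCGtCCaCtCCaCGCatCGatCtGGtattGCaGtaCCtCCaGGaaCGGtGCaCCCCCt
Gm22973: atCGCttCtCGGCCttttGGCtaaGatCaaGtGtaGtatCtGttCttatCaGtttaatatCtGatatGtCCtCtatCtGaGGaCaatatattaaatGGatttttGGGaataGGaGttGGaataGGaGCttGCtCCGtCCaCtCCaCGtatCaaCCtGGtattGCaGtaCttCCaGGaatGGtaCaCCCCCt
Snord17: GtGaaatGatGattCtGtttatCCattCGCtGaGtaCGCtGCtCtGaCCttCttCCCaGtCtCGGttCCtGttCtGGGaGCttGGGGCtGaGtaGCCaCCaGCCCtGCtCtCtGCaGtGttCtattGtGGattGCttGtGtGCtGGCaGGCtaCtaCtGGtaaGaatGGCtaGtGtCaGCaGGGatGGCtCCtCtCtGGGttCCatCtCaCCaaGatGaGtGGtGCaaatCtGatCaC

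Experiment 1 differed from experiments 2 to 4 in 2665 of 14566 genes tested with the line as a block (edgeR's quasi-likelihood test, Benjamini-Hochberg adjusted p under 0.05). Of these, 1031 were higher in experiment 1 (7.08% of the genes tested) and 1634 were lower (11.2%); 36 of the higher and 184 of the lower differed by 2-fold or more. The median log2 fold change over all genes tested was -0.01. In 792 of the 1031 and 936 of the 1634, the experiment 1 library lay beyond the other 3 libraries of its line in all 3 lines. Over all genes tested, 1264 lay above and 1316 below in this way. The called genes were picked by the same libraries, so that their position was in part fixed by the choice. Most of the additive calls rested on KO-labelled and WT clone1. Without the experiment 1 library of KO-labelled 216 genes passed, without that of WT clone1 78, and without that of WT clone2 4292. Without both of the first 2, 55 passed. The balance turned with them: 83.3% of the 216, 89.7% of the 78 and 100% of the 55 were higher, against 38.7% of the 2665 and 40.4% of the 4292.

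The genes on the 2 sides differed in length and base composition. The genes higher in experiment 1 had a median transcript length of 1502 bases and a median GC content of 53.9%, against 5174 bases and 42.6% for the lower ones and 3163 bases and 49.9% for all genes tested. Among the 10716 genes at 5 CPM or more with a known GC content, 966 were in both the shortest and the most GC-rich quartile (up to 2148 bases, at least 54.7% GC), of which 293 were called higher and 2 lower. Of the 962 in both the longest and the most GC-poor quartile (at least 5283 bases, up to 45.6% GC), 8 were called higher and 582 lower, 60.5% of that corner.

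The GC dependence of experiment 1 was present in 2 lines and nearly absent in the third. Across these 10716 genes, the deviation of the experiment 1 library from its line's mean correlated with GC content at r = 0.675 in KO-labelled, 0.601 in WT clone1 and 0.0509 in WT clone2. With log2 transcript length, the correlations were -0.342, -0.392 and -0.421. In WT clone2 the GC correlations of experiments 2, 3 and 4 were -0.0749, 0.254 and -0.302, all larger in size than that of experiment 1. They were -0.453, -0.392 and -0.46 in KO-labelled, and -0.549, -0.269 and -0.173 in WT clone1. The deviations of a line are taken from its own mean and so are tied to each other. In the decile of genes lowest in GC content, the median log2 fold change was -0.81 in KO-labelled, -0.59 in WT clone1 and -0.07 in WT clone2, and in the highest decile 0.31, 0.26 and -0.02. In the decile with the shortest transcripts it was 0.19, 0.28 and 0.17, and in the decile with the longest -0.32, -0.20 and -0.13. These are descriptions across genes, which are not independent replicates and share their libraries.

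**Figure D1:**
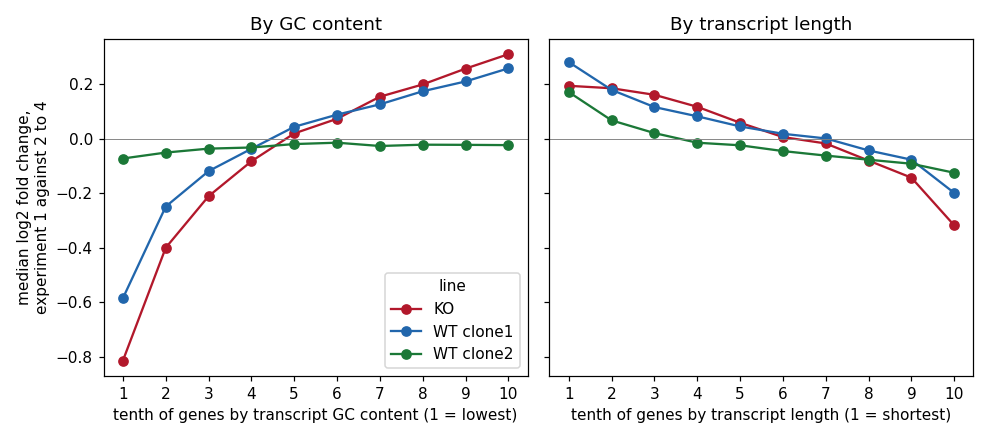
Median log2 fold change of experiment 1 against experiments 2 to 4 within each line (y) by decile of the 10716 genes at 5 CPM or more (x), ordered by GC content (left) and by length (right) of the canonical transcript; each point is the median over 1068 to 1076 genes. KO and WT clone1 rise with GC content from -0.81 and -0.59 to 0.31 and 0.26 while WT clone2 stays between -0.07 and -0.01, and all the lines fall with length.

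**Figure D2:**
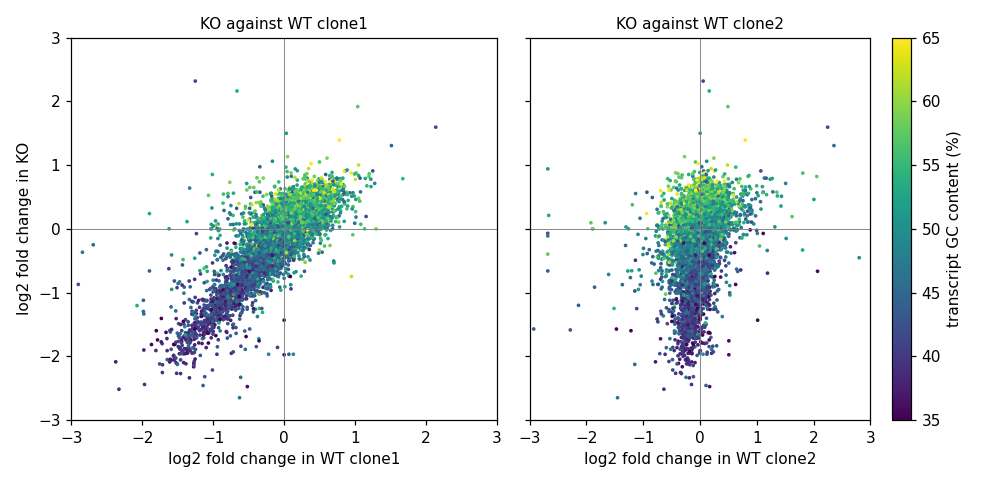
Log2 fold change of experiment 1 against experiments 2 to 4 in KO (y) against WT clone1 (left, x) and WT clone2 (right, x) for 10716 genes, coloured by transcript GC content from 35% to 65%; 13 genes beyond 3 in a line lie outside the axes. GC-poor genes fall along the diagonal in the left plot and straight down in the right plot.

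The composition of the libraries moved with this. Counts weighted by transcript gave a mean length of 4204, 4406 and 4388 bases in the experiment 1 libraries of KO-labelled, WT clone1 and WT clone2, all below the 4540 to 4772 bases of the other 9. The mean within-line difference was -303.9 bases (two-sided exact permutation test over the 64 choices of 1 library per line, p = 0.0156, the smallest it can give; adjusted p = 0.0312 over 10 measures). The count-weighted GC content was 51.2% and 50.9% in KO-labelled and WT clone1, against 49.8% to 50.4% in the other 9 libraries, and in WT clone2 it lay within their range (exact permutation test, p = 0.0312, adjusted p = 0.0391). The 50 most abundant genes of a library took 15.3% to 16.1% of its counts in experiment 1 and 14.3% to 15.8% in the others, a difference that did not pass (exact permutation test, p = 0.141, adjusted p = 0.156). Here and below, this exact test takes the choice in each line as independent of the other lines. Libraries with the same number correlated at 0.0397 to 0.734 across genes. If they were handled together, fewer choices would be free and the p-values of the exact test would be too small.

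Ribosomal protein genes, whose products build the cytosolic ribosome, took a larger share of counts in experiment 1. The share of the 86 genes was 5.49% in KO-labelled against 4.47%, 4.404% and 3.996% in experiments 2 to 4, 5.27% in WT clone1 against 3.77%, 3.32% and 4.27%, and 4.91% in WT clone2 against 3.77%, 3.74% and 3.65%. No experiment 1 share overlapped those of the other experiments (5.22% ± 0.292, SD, n = 3, against 3.93% ± 0.382, n = 9; exact permutation test, p = 0.0156, adjusted p = 0.0312). Of the 86 genes, 68 were called higher and 0 lower, beside 7.08% and 11.2% of all genes, with a median log2 fold change of 0.39.

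Rps21, of the small subunit, counted 246 CPM against 196, 161 and 159 in KO-labelled, 182 against 78.8, 90.0 and 106 in WT clone1, and 318 against 135, 114 and 123 in WT clone2. Here WT clone2 had the largest log2 fold change, 1.36, beside 0.99 in WT clone1 and 0.52 in KO-labelled (additive 0.98 ± 0.13, SE, as for every log2 fold change given with ±, edgeR adjusted p = 0.00179). That order was not called as a difference between lines (edgeR interaction test, adjusted p = 0.203). Rpl37a and Rpl39 of the large subunit rose by 1.015 ± 0.12 (edgeR adjusted p = 0.00133) and 0.995 ± 0.13 (adjusted p = 0.00154). Rplp1, Rpl41 and Rps14, abundant genes of this group that the rule named, rose by 0.59, 0.73 and 0.77 on the log2 scale. Of 108 pseudogenes named after this family, 35 were called higher and 0 lower, beside 7.08% and 11.2% of all genes. Rps13-ps1 rose by 1.02 ± 0.15 (edgeR adjusted p = 0.00291). After the correction for GC content and length described further on, 12 of the 108 were higher and 1 lower, beside 5.44% and 3.58% of all genes. Reads of such copies cannot be separated with certainty from the parent gene.

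Small noncoding RNAs were also higher. They took 0.387%, 0.387% and 0.524% of counts in experiment 1 of KO-labelled, WT clone1 and WT clone2, above the 0.205% to 0.369% of the other 9 libraries (exact permutation test, p = 0.0156, adjusted p = 0.0312). Of 77 tested, 30 were called higher and 3 lower, beside 7.08% and 11.2% of all genes, with a median of 0.56. Snord17 counted 10.1 CPM in experiment 1 of KO-labelled against 7.58, 7.27 and 7.16, 9.16 in WT clone1 against 4.11, 4.72 and 4.81, and 21.2 in WT clone2 against 5.26, 5.81 and 4.74. Its deviation was largest in WT clone2, 2.01 on the log2 scale beside 1.01 and 0.46, and this difference between lines passed (edgeR interaction test, adjusted p = 0.0176; additive 1.23 ± 0.20, adjusted p = 0.00441). Gm22973 counted 18.1 CPM against 6.33, 4.26 and 7.27 in KO-labelled, 14.1 against 2.44, 3.56 and 3.62 in WT clone1, and 21.6 against 4.97, 4.48 and 4.18 in WT clone2 (log2 fold change 2.00 ± 0.16, edgeR adjusted p = 4.81e-05). Gm25360, its near copy, rose by 1.77 ± 0.18 (edgeR adjusted p = 0.000487). Scarna6, a small Cajal body RNA, rose by 1.08 ± 0.17 (edgeR adjusted p = 0.00369). Of the list of small structural RNAs, 7 of 11 tested members rose and 0 fell, beside the same 7.08% and 11.2%. Among the 7 was Lars2, which is a protein-coding gene. Rn7s2, an RNA of the signal recognition particle, rose (log2 fold change 0.86 ± 0.15, edgeR adjusted p = 0.0065).

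Replication-dependent histone genes, whose messages end in a stem-loop instead of a poly(A) tail and peak in S phase, were also higher. Their share was 0.569%, 0.577% and 0.473% of counts in experiment 1 of KO-labelled, WT clone1 and WT clone2, against 0.341% to 0.450% in the other 9 (exact permutation test, p = 0.0156, adjusted p = 0.0312). Of 28 tested, 22 rose and 0 fell, and the median log2 fold change was 0.66 in KO-labelled, 0.53 in WT clone1 and 0.17 in WT clone2. H2ac8 counted 22.7 CPM against 12.4, 14.1 and 10.9 in KO-labelled, 21.2 against 9.17, 10.7 and 12.1 in WT clone1, and 16.8 against 13.03, 12.2 and 11.97 in WT clone2 (0.77 ± 0.12, edgeR adjusted p = 0.00338). Genes of the E2F program and DNA replication, which are active in the same phase, had 2 of 33 higher, Dut at 0.35 and Tk1 at 0.23, and 2 lower, Pola1 at -0.96 and Ccne2 at -0.89. These counts are to be read against 7.08% and 11.2% of all genes.

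Nuclear-encoded subunits of oxidative phosphorylation and the genes of the mitochondrial genome went in different directions. Of 26 nuclear genes, 17 rose and 0 fell, beside 7.08% and 11.2% of all genes, with a median of 0.26. Cox7a2, a subunit of cytochrome c oxidase, counted 103 CPM against 67.2, 69.0 and 58.0 in KO-labelled, 84.0 against 50.9, 46.4 and 51.8 in WT clone1, and 110 against 64.9, 61.5 and 53.9 in WT clone2 (0.77 ± 0.08, edgeR adjusted p = 0.000453). Atp5f1e, of ATP synthase, rose by 0.95 ± 0.11 (edgeR adjusted p = 0.00133). Of the 15 mitochondrially encoded genes, 9 fell and 1 rose, beside 11.2% and 7.08% of all genes. The riser was mt-Nd3, at 0.48 ± 0.15 (edgeR adjusted p = 0.0435). mt-Nd6, the complex I subunit read from the opposite strand of the mitochondrial genome, counted 39.5 CPM against 117, 119 and 116 in KO-labelled, 57.8 against 123, 150 and 141 in WT clone1, and 55.5 against 165, 87.2 and 210 in WT clone2, a fall of -1.43 ± 0.20 (edgeR adjusted p = 0.00218). mt-Atp8 fell by 1.52 ± 0.27 on the log2 scale (adjusted p = 0.0063, edgeR). Strand use in counting is not given in the sources used here. Where it is not used, mitochondrial genes that overlap on opposite strands cannot be told apart. Genes that overlap on the same strand are not separated by it in either case.

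The summed mitochondrial share differed between lines. It was 1.06% in experiment 1 of KO-labelled against 1.75% to 2.06%, 1.33% in WT clone1 against 1.86% to 2.43%, and 3.09% in WT clone2 against 1.74% to 2.5%, so that experiment 1 was the lowest library of 2 lines and the highest of the third (exact permutation test over all lines, p = 0.484). mt-Rnr1, the small mitochondrial ribosomal RNA, counted 3704 CPM in experiment 1 of WT clone2 against 1096, 653 and 896, but 629 in KO-labelled against 1238, 892 and 864, and 632 in WT clone1 against 823, 1044 and 801. The log2 fold changes were 2.07 (edgeR adjusted p = 0.00552) in WT clone2, -0.67 and -0.49, and the difference between lines passed (edgeR interaction test, adjusted p = 0.00817). After the correction for GC content and length described further on, KO-labelled and WT clone1 turned to 0.39 and 0.23, and the difference between lines no longer passed (edgeR adjusted p = 0.196).

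**Figure D3:**
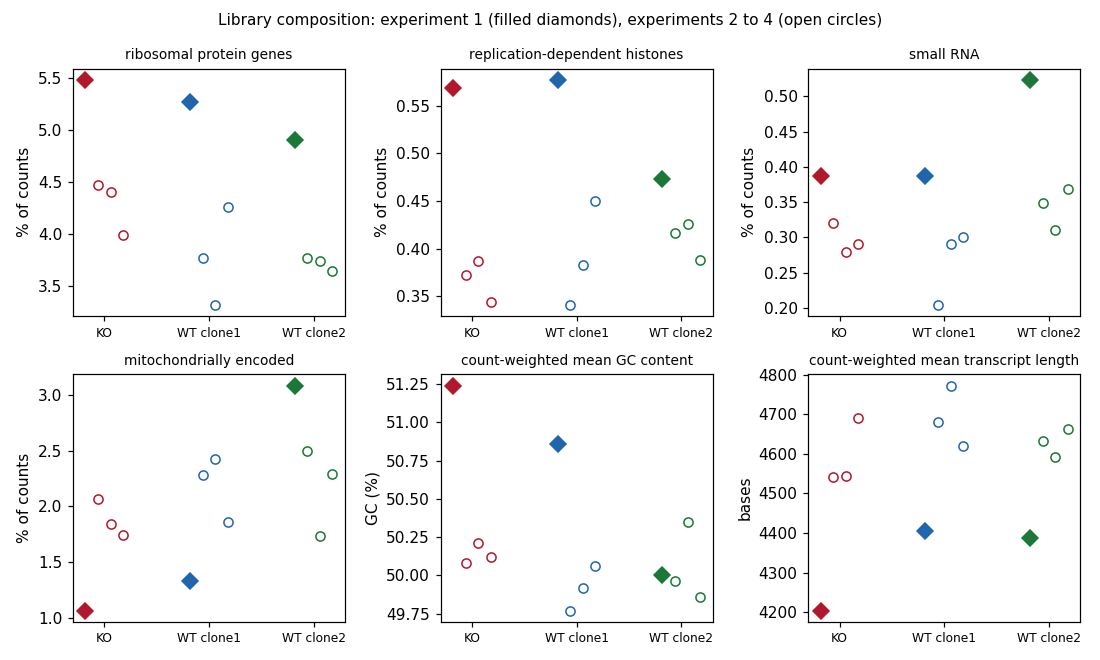
Composition of the 12 libraries by line (x): shares of counts in 4 gene classes (%), count-weighted mean GC content (%) and count-weighted mean transcript length (bases); filled diamonds are experiment 1 and open circles experiments 2, 3 and 4 from left to right. Axes do not start at 0. Experiment 1 stands above the other libraries of its line for ribosomal protein genes, histones and small RNA and below them for length, while the mitochondrial share is lowest in KO and WT clone1 and highest in WT clone2.

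Of 29 genes of G2 and mitosis, 12 fell in experiment 1 and 3 rose, beside 11.2% and 7.08% of all genes. The 12 had transcripts of 2960 to 11210 bases and 41.2% to 47.1% GC. The 3, Mybl2, Ube2c and Cdc20, had 967 to 3828 bases and 51.4% to 56.9% GC. Cenpe, a kinesin of the kinetochore, counted 20.7 CPM against 87.4, 77.7 and 105 in KO-labelled, 34.3 against 128, 125 and 93.7 in WT clone1, and 124 against 164, 148 and 180 in WT clone2. The first 2 lines lay far below the other libraries and the third just below them. The deviation was -2.12, -1.75 and -0.40 on the log2 scale (additive -1.31 ± 0.25, edgeR adjusted p = 0.00747; interaction adjusted p = 0.0144). Cenpf, another kinetochore protein, and Kif20b, a kinesin of cytokinesis, fell by 1.30 ± 0.24 (adjusted p = 0.00689, edgeR) and 1.30 ± 0.26 (adjusted p = 0.00827, edgeR). Mki67, the proliferation marker, counted 127 CPM in experiment 1 of KO-labelled against 357, 368 and 442, and Ube2c, an enzyme of mitotic exit with a transcript of 967 bases, 159 against 140, 132 and 128. The additive log2 fold changes were -1.16 ± 0.20 (edgeR adjusted p = 0.00546) and 0.30 ± 0.08 (edgeR adjusted p = 0.0191). Ube2c and Cdc20 did not pass after the correction (edgeR adjusted p = 0.151 and 0.299). In bulk RNA, fewer cells of a phase and less RNA per cell cannot be told apart.

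Other falls were spread over unrelated functions. Malat1, a nuclear long noncoding RNA, counted 1563 CPM against 4324, 3865 and 4244 in KO-labelled, 2009 against 5186, 5179 and 3871 in WT clone1, and 2787 against 4051, 2918 and 3933 in WT clone2 (-0.98 ± 0.18, edgeR adjusted p = 0.00689). It was 1 of 4 members of the nuclear long noncoding RNA list to fall, of 15 tested, with none rising. Among all long noncoding RNAs 53 of 860 fell and 12 rose, both smaller shares than the 11.2% and 7.08% of all genes. Their share of counts was 0.604%, 0.707% and 0.928% in experiment 1 against 0.796% to 1.21% (exact permutation test, p = 0.0312, adjusted p = 0.0391). That share includes Malat1, whose fall is given above and makes up a large part of it. The share of the rest was not computed. Ahnak, a giant scaffold protein, fell by 0.63 ± 0.14 (adjusted p = 0.0103, edgeR), Grem1, a secreted BMP antagonist, by 1.21 ± 0.22 (adjusted p = 0.00656), and Hsp90aa1, a chaperone, by 0.69 ± 0.13 (adjusted p = 0.00742). Prrx1, a mesenchymal transcription factor, fell by 0.53 ± 0.11 (adjusted p = 0.00817, edgeR). Of the circadian clock genes 3 of 18 fell, Nr1d2 (-0.90), Rora (-1.16) and Clock (-0.90), with transcripts of 5669 to 11028 bases, a share close to the 11.2% of all genes. Rora did not pass after the correction (edgeR adjusted p = 0.102). Of the splicing list 5 of 20 fell, led by Rbm39 (-0.58) and Clk1 (-0.67).

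Several lists gave no call in the additive test. No gene passed it (edgeR) among 24 of cholesterol synthesis, 23 of the interstitial matrix, 16 of matrix proteases, 15 YAP and TEAD targets, 24 of the amino acid response and 21 Hox genes. Their medians lay between -0.12 and 0.11. At an unadjusted p under 0.05 there were 3, 2, 2, 2, 3 and 2 of them, in that order. Of all 14566 genes tested, 4954 were under that p in the additive test. Within KO-labelled, 1 gene of cholesterol synthesis was higher and 1 lower. In the test of any difference among the 4 experiments, which called 2.16% of all genes, 6 of the 23 matrix genes and 4 of the 24 of the amino acid response passed. Of 22 interferon-stimulated genes 1 fell, Ifit2, at -0.84. Not every riser was short: Adcyap1r1, a neuropeptide receptor with a transcript of 6248 bases, counted 53.7 CPM in experiment 1 of WT clone1 against 25.4, 20.9 and 22.8. It counted 11.2 in KO-labelled against 6.75, 6.22 and 8.20 (additive 1.001 ± 0.14, edgeR adjusted p = 0.00218). Lgals1, a secreted galectin and the most abundant gene named, counted 2601 CPM against 1702, 1726 and 1493 in KO-labelled, 1732 against 1008, 897 and 1108 in WT clone1, and 2175 against 1206, 1511 and 1199 in WT clone2 (0.73 ± 0.09, edgeR adjusted p = 0.0015).

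**Figure D4:**
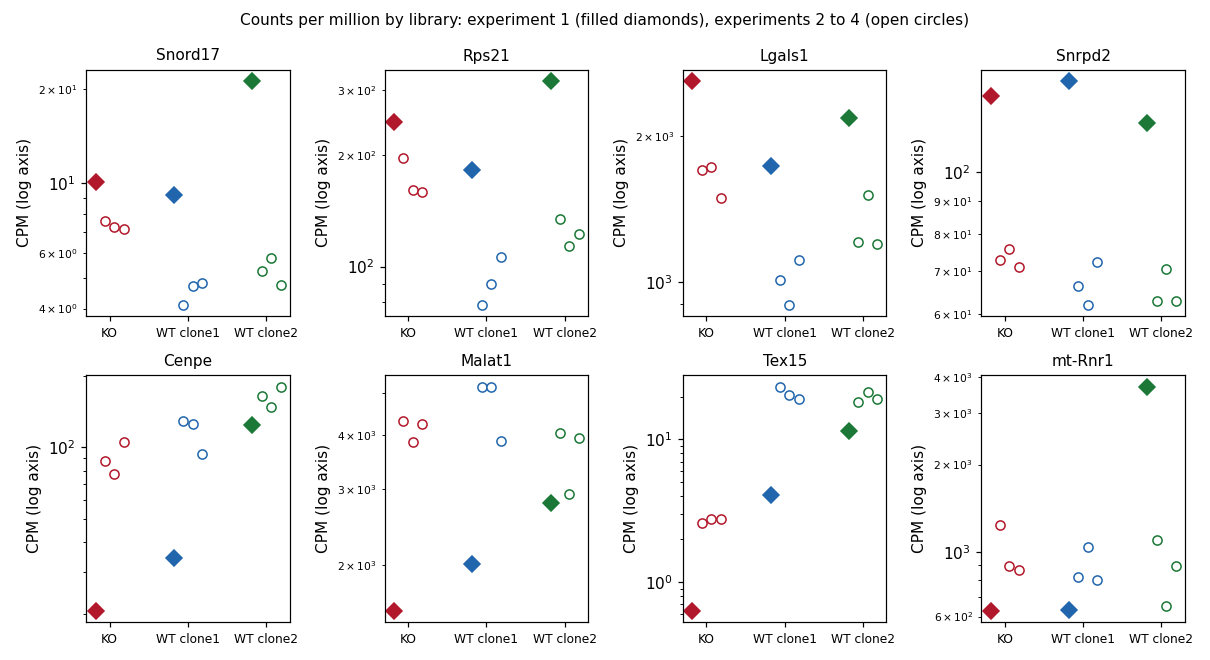
CPM (log axis) of 8 genes by line (x); filled diamonds are the experiment 1 library and open circles experiments 2, 3 and 4 from left to right. Snord17, Rps21, Lgals1 and Snrpd2 lie above the other libraries in each line; Cenpe, Malat1 and Tex15 lie below them, least so in WT clone2; mt-Rnr1 is at 3704 CPM in WT clone2 and at 629 and 632 in the other lines.

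**Figure D5:**
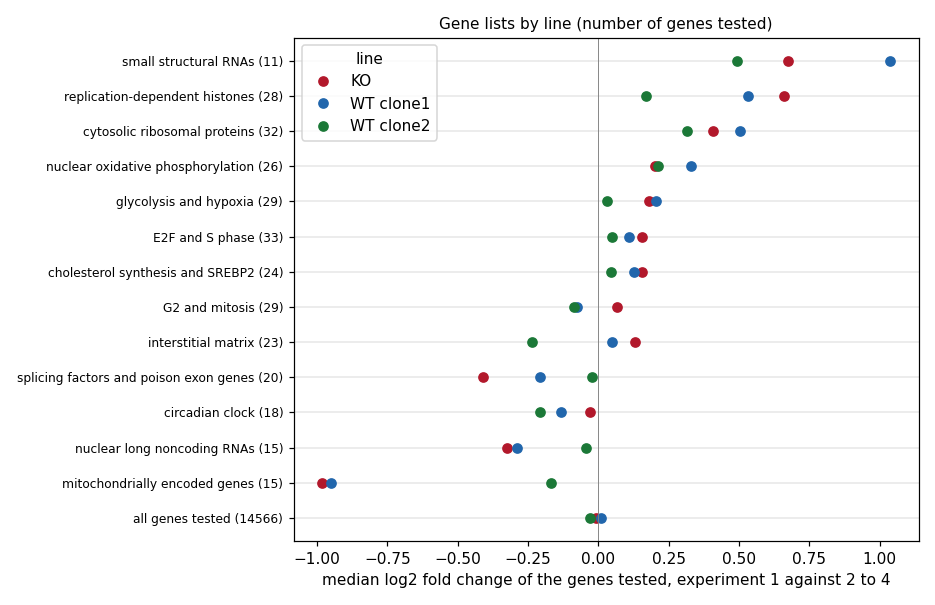
Median log2 fold change of experiment 1 against experiments 2 to 4 (x) within each line for 13 gene lists and for all genes tested (y, number of genes tested in brackets); each point is a median over genes, with no error bar. Histones are at 0.66, 0.53 and 0.17 and mitochondrially encoded genes at -0.98, -0.95 and -0.17 in KO, WT clone1 and WT clone2.

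Within single lines, where 1 library stands against 3 and is assumed to vary like them, the deviation was unequal. In KO-labelled 421 genes were called higher (2.89%) and 1718 lower (11.8%), in WT clone1 300 higher (2.06%) and 976 lower (6.7%), and in WT clone2 49 higher (0.336%) and 0 lower (0%), all by edgeR. The higher share of the calls was 19.7% in KO-labelled and 23.5% in WT clone1, and 52.9% and 53.6% after correction for GC content and length. In WT clone2, 225 genes were lower at an unadjusted p under 0.05, and DESeq2 called 77 genes, 76 of them higher. KO-labelled and WT clone1 shared 1026 calls of the same sign and 0 of opposite sign. Their deviations correlated across genes at r = 0.822, beside 0.276 for KO-labelled with WT clone2 and 0.372 for the 2 wild-type lines. After the correction these correlations were 0.668, 0.292 and 0.37.

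Within KO-labelled, Tmem37 and Gmpr, a guanosine monophosphate reductase, rose by 1.5 and 1.06 (edgeR adjusted p = 0.0446 and 0.013), followed by Rn7s2 and the histone genes H4c11 and H2bc6 at 1.002, 0.92 and 0.91. Kcnj2, a potassium channel, had 0 counts in experiment 1 against 11, 9 and 9, at least 3.45-fold lower with a floor of 3 counts in that library. Slc39a8, a zinc importer, fell by 2.65 on the log2 scale, Samd9l by 2.52, Angpt1, a ligand of the Tie2 receptor, by 2.44 and Zfp120 by 2.34. Samd9l counted 1.44 CPM against 6.39, 10.4 and 8.02 in KO-labelled, 3.49 against 18.4, 19.96 and 14.2 in WT clone1, and 7.80 against 11.1, 14.4 and 10.8 in WT clone2 (additive -1.60 ± 0.30, edgeR adjusted p = 0.00725). In WT clone1 the largest falls were those of Tex15 (-2.37), Samd9l (-2.33), the complement gene C3 (-2.07), Grem1 (-1.98) and Sytl5 (-1.98), and the largest rises those of Adcyap1r1 (1.22), Scarna6 (1.22), Rn7s6 (1.20), Atp5f1e (1.17) and Rprl2 (1.13). After the correction, Tmem37, Rn7s2, Kcnj2, Samd9l and Angpt1 no longer passed within KO-labelled, nor did Scarna6, Rn7s6, Rprl2 and Sytl5 within WT clone1.

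The 49 genes called in WT clone2 were short. Their median transcript length was 523 bases and their median GC content 48.5%, and 24 were protein-coding, 15 small RNAs and 9 pseudogenes; 10 were ribosomal protein genes. In the additive test 43 of the 49 were also called higher. That test contains the WT clone2 library by which the 49 were picked, so that this overlap was in part built in. The median log2 fold change of the 49 was 0.52 in KO-labelled and 0.78 in WT clone1, beside -0.01 and 0.01 for all genes tested. Besides mt-Rnr1 and Snord17, Rpl21-ps15 (1.52), Rps13-ps1 (1.44) and Rps21 (1.36) had the largest changes among those the rule named. In KO-labelled and WT clone1, Rpl21-ps15 was at -0.15 and 0.26, Rps13-ps1 at 0.51 and 0.95, and Rps21 at 0.52 and 0.99. Snrpd2, a core protein of the spliceosome, passed in all the lines, with 0.84, 1.05 and 0.86 in KO-labelled, WT clone1 and WT clone2 (additive 0.92 ± 0.07, edgeR adjusted p = 4.81e-05).

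The size of the experiment 1 deviation differed between lines for 391 genes (2.68%; edgeR, interaction with 2 degrees of freedom). These had a median length of 5820 bases and a median GC content of 40.5%, and median log2 fold changes of -1.36 in KO-labelled, -1.01 in WT clone1 and -0.13 in WT clone2. Between pairs of lines 644 genes differed for KO-labelled and WT clone2, 638 of them with the lower value in KO-labelled, and 58 for WT clone1 and WT clone2, all with the lower value in WT clone1. For KO-labelled and WT clone1 there were 0, with 340 at an unadjusted p under 0.05 in edgeR. The 8 genes with the smallest p-values (adjusted p = 0.00644 for each, edgeR interaction test) were Xiap, an inhibitor of caspases, Stag2, a cohesin subunit, Atrx, a chromatin remodeller, Cip2a, an inhibitor of the phosphatase PP2A, Atm, the DNA damage kinase, Hook3, a dynein adaptor, Vps13a, a lipid transfer protein, and Rp2. Stag2 counted 39.2 CPM against 167, 142 and 178 in KO-labelled, 52.97 against 168, 151 and 145 in WT clone1, and 149 against 183, 157 and 180 in WT clone2. Atm counted 25.03 CPM against 87.6, 80.0 and 91.2, 40.2 against 109, 103 and 98.4, and 65.7 against 81.4, 72.4 and 82.4. In both genes experiment 1 of KO-labelled and WT clone1 stood far below every other library of its line, and that of WT clone2 just below.

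After each library was corrected for the GC content and length of the transcripts, the additive test called 1315 genes, 793 higher (5.44%) and 522 lower (3.58%), so that the higher share moved from 38.7% to 60.3%. Of these, 863 had been called with the same sign before and 11 with the opposite sign. The interaction test called 0 genes (0%), with 855 at an unadjusted p under 0.05 in edgeR. Of the 86 ribosomal protein genes 54 were called higher and 0 lower, the histone list had 12 of 28 higher, the G2 and mitosis list 2 higher and 9 lower, and the mitochondrial list 3 higher and 4 lower. Among genes named above, Snrpd2 (0.80, edgeR adjusted p = 1.27e-05), Rpl39 (1.03, adjusted p = 0.000175), Gm22973 (1.97, adjusted p = 1.27e-05) and Cenpe (-0.93, adjusted p = 0.00641) passed after correction, and Ahnak and Prrx1 were among those that did not (adjusted p = 0.0789 and 0.216). Of the 8 genes with the smallest interaction p-values, Xiap, Hook3 and Rp2 lost their additive call. The canonical transcript can be longer than the expressed form: that of Rpl37a has 3762 bases, and its log2 fold change grew to 1.27 after correction. The part of library preparation and of the state of the cells in these differences was not tested.

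Among the 4 experiments as a whole, with the line as a block, 314 genes differed (2.16%; edgeR, 3 degrees of freedom), a count that was 152 with total counts, 1166 with limma-voom and 2223 with DESeq2. Experiment 2 against the other 3 called 0 genes and experiment 4 called 0, with 633 and 831 at an unadjusted p under 0.05 in edgeR. Experiment 3 called 7, all higher (0.0481%), and after the GC and length correction 89, of them 85 higher and 4 lower. The 7 are the fibrillin gene Fbn2, the collagen gene Col6a2, Anxa8, Prelp, Ifi44, Mtus1 and Bst2. Prelp was at 0 CPM in every KO-labelled library, so that its call rests on the wild-type lines, and Anxa8 was at 0.69 to 3.21 CPM in KO-labelled. Fbn2 counted 63.9 CPM in experiment 3 of KO-labelled against 31.8, 45.5 and 42.2 in experiments 1, 2 and 4, 134 in WT clone1 against 79.6, 71.0 and 75.1, and 301 in WT clone2 against 184, 175 and 171 (0.76, edgeR adjusted p = 0.0188). These contrasts share libraries with that of experiment 1. In each, the experiment 1 libraries stand among the reference, where their deviation adds to the spread. The 0 calls therefore do not show that experiments 2 and 4 are like the rest.

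Within a line, the SD of log2 CPM over the 4 libraries had a median of 0.21 in KO-labelled, 0.20 in WT clone1 and 0.165 in WT clone2, and the mean of the lines had a median of 0.202, falling to 0.151 without experiment 1. Experiment 1 was the library farthest from its line's mean for 57.3% of 10716 genes in KO-labelled, 48.1% in WT clone1 and 21.6% in WT clone2, where experiment 3 was the farthest for 34.3%. Of the genes with an SD over 0.5, experiment 1 was the farthest for 702 of 836 in KO-labelled, 409 of 580 in WT clone1 and 59 of 268 in WT clone2. The 10 most variable named genes at 5 CPM or more were Igfbp2, Prelp, Samd9l, Chodl, Cdh6, Abi3bp, Angpt1, Foxp2, Galnt16 and Tex15, and 4 of these 10 were also among the 10 most variable without experiment 1. With a prior count of 0.5 in place of 2, 3 of the 10 were. Igfbp2, a carrier of insulin-like growth factors, counted 163, 53.7, 228 and 91.0 CPM in experiments 1 to 4 of KO-labelled, 21.3, 26.3, 59.5 and 12.9 in WT clone1, and 49.3, 14.8, 128 and 67.5 in WT clone2. It was highest in experiment 3 of every line and was not called for experiment 1 (edgeR adjusted p = 0.832).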

How the data were processed

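RNA from 12 cultures was sequenced in paired reads of 150 bases, per the labels' protocols. Per the submitters' processing notes, FastQC, STAR 2.5.4a and GRCm39 were used, and no counting tool is named there. The deposited table has raw counts per gene, not normalized, in 15207 entries; 51 of them name no gene, took 2.04% to 5.25% of counts and entered neither tests nor library sizes. Of 15156 gene IDs, 15153 matched GENCODE M39.

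Counts were tested with edgeR 4.0.16 (TMM, filterByExpr, quasi-likelihood, Benjamini-Hochberg over 14566 genes) in R 4.3.3, and printed CPM are TMM-scaled. Genes named for experiment 1 have official symbols, at least 5 CPM, a passing test and an experiment 1 library beyond the other 3 of its line: the 8 largest changes each way, the 5 most abundant, and the 5 largest per line and direction. The 8 smallest interaction p-values, the 10 most variable genes and up to 4 members per list by smallest p were also named. Snrpd2, Gm22973, Gm25360, Lars2, mt-Nd3, Ube2c, Cdc20, Mybl2 and the genes called for experiment 3 fall outside this rule and were chosen after their values were seen. The members and the 47 lists were chosen with earlier results of these data known. Alternatives used DESeq2 1.42.0, limma 3.58.1, other scalings and filters, and a loess correction (span 0.3) for GC content and length of the canonical transcript; the correction by listed length, the one joined with the replicate block and the omission of 2 experiment 1 libraries were chosen after seeing the data. The code was tested on simulated data. No pair of libraries of a line agreed within counting error (chi-square over its degrees of freedom, 10.3 to 66.5). Some results named by this rule are not reported here.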

Additional observations from a re-analysis of the deposited data

Results flagged for a closer look

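In groups of 4 libraries of a line, 108 sets of values were examined for a library far from the other 3, and 18 had one, the experiment 1 library each time. Chance flags about 1 in 20 groups, but most sets are genes named because experiment 1 lay beyond the other 3 libraries, so that this rate is no comparison and the side was largely fixed by the choice. The value in each case is the gap to the nearest library divided by the range, above Dixon's critical value.

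Among the shares, it was 0.901 for ribosomal protein genes in WT clone2, 0.832 for long noncoding RNA in the KO-labelled line, 0.859 for entries with no gene in the KO-labelled line and 0.885 for the count-weighted GC content in the KO-labelled line. Snord17 stood out in all the lines, at 0.858 in the KO-labelled line, 0.862 in WT clone1 and 0.935 in WT clone2. In WT clone2, Scarna6 (0.917), Rps13-ps1 (0.863), Rpl39 (0.881), Rps21 (0.898) and Rps14 (0.859) were highest in experiment 1. In WT clone1, Adcyap1r1 (0.863) and Rplp1 (0.908) were highest. In the KO-labelled line, Rpl41 (0.857) was highest, and Tex15 (0.922), mt-Nd6 (0.965) and Malat1 (0.834) were lowest.

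The difference between lines in the experiment 1 deviation was called for 391 genes by the interaction test. Entries with no gene, which no gene test used, took 5.25%, 4.05% and 2.54% of all counts in experiment 1 of KO-labelled, WT clone1 and WT clone2, against 2.04% to 3.51% in the other 9 libraries, a mean within-line difference of 1.16 percentage points (exact permutation test, p = 0.0312, adjusted p = 0.0391 over 10 measures); WT clone2 lay within the range of the others.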

How the results depend on the processing

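The additive count of 2665 was 1315 after the GC and length correction, 1327 with the listed gene length in its place, 1542 with that correction and the replicate block, 9 with the line left out of the model, 95 without the KO-labelled line, 27 without WT clone1, 4702 without WT clone2, 55 without the experiment 1 libraries of KO-labelled and WT clone1 and 958 at 1.5-fold or more; leaving out single libraries gave 78 to 4292. Within KO-labelled the count of 2139 was 635, 625 and 820 under these 3 corrections, within WT clone1 1276 became 306, 294 and 439, within WT clone2 49 became 14, 27 and 29, and the interaction 391 became 0, 0 and 1. WT clone2 had 77 with DESeq2 and 30 without mitochondrial and ribosomal protein genes. Single libraries left out gave 1547 to 2541 within the KO-labelled line, 756 to 1644 within WT clone1, 8 to 60 within WT clone2 and 184 to 461 for the interaction. The test of any difference, 314, gave 152 with total counts, 2223 with DESeq2, 1166 with limma-voom, 886 and 954 after correction, 0 without the line term, 45, 0 and 2810 without KO-labelled, WT clone1 and WT clone2, and 3 to 3821 with single libraries left out. The median SD within a line, 0.202, was 0.151 without experiment 1. The cause of these changes was not tested.

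With the experiment number as a replicate block, the counts were 2685, 2571, 1600, 60 and 528 for the additive test, KO-labelled, WT clone1, WT clone2 and the interaction, none over 1.5 times from the count without it. Libraries with the same number correlated at 0.0397 to 0.734, 10 of 12 pairs above 0.1. A library correlated best with its own number in 15 of 24 cases, each with 4 libraries to choose from. In the remaining cases another number was best. Experiment 1 of KO-labelled, for example, correlated at 0.232 with experiment 3 of WT clone2 and at 0.203 with its experiment 1. Without experiment 1 the range was 0.0397 to 0.311. Since not every pair exceeded 0.1 and the labels name no shared day, the numbers were not treated as pairs, and shared handling was not tested.

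Leaving out single libraries gave within-line differences of 1.19 to 1.37 percentage points for ribosomal protein genes, 0.106 to 0.151 for small RNA, 0.124 to 0.193 for histones, 0.079 to 0.138 for pseudogenes, -0.39 to -0.203 for long noncoding RNA, -0.839 to 0.0444 for mitochondrial genes (0.0247 and 0.0444 without experiment 1 of KO-labelled and of WT clone1), 0.786 to 1.66 for entries with no gene, 0.455 to 0.781 for the 50 most abundant genes and 0.443 to 1.02 for GC content, and -335.4 to -262.4 bases for length. Without an experiment 1 library the exact test has 16 choices and cannot go below 0.0625.

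Of 3498 alternatives for 127 gene results, 2790 left the call as it was, 681 lost it and 6 gained one; 21 changed direction. mt-Rnr1 became -0.56 without WT clone2 and -0.58 without its experiment 1 library. mt-Rnr2 became 0.39, 0.39 and 0.42 under the 3 corrections, 0.070 without the KO-labelled line, 0.63 without the experiment 1 libraries of KO-labelled and WT clone1 and 0.058 without that of KO-labelled; leaving out single libraries gave -0.58 to 1.08 for mt-Rnr1 and -0.76 to 0.058 for mt-Rnr2. Rbl1 became 0.13, 0.13 and 0.17, Canx 0.019, 0.019 and 0.079, and Cdkn1b 0.10, 0.10 and 0.14 under the corrections, and mt-Co1 0.013 with the listed length. Cdc20, Clk1 and Luc7l2 became -0.0034, 0.0062 and 0.0066 without the experiment 1 libraries of KO-labelled and WT clone1. With 1 library per line in experiment 1, its own spread is not measured, and genes of low abundance are limited by depth. The higher share within KO-labelled was 31.4% with no filter on low counts.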
